A study of Mus musculus with 20 samples.

Results

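The transcripts described here were those whose level in wild-type mouse liver was higher after estradiol (E2, the main circulating estrogen) than after placebo. They were chosen by measured values: in the deposited table of log2 values, the mean of the wild-type E2 arrays exceeded that of the wild-type placebo arrays by at least 0.5, and every wild-type E2 array exceeded every wild-type placebo array. Both conditions were met by 120 of its 32526 probes. Leaving out 12 probes labelled by a genomic region and 18 probes or genes by name left 90 member probes of 76 genes. The table held 22927 genes. Because wild-type livers chose the members, every value from wild types below is a description with no test, and the response to E2 in livers without the receptor is the only one tested.

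Mice with the genotype ERa+/+ (wild type) or ERa-/- (null, without estrogen receptor alpha) were ovariectomized at 4 weeks of age, which takes away the ovary's own estrogen in all groups. At 9 weeks they were gavaged with placebo (castor oil with 5% ethanol) or with E2 at 1 mg/kg, and the liver was taken 4 hours later under ketamine and xylazine. Each of the 4 groups (wild-type placebo, wild-type E2, null placebo, null E2) held 5 animals, 1 array each, and wild types came from the same parents as the nulls. The labels do not state the null allele's deleted part or which animals shared a cage.

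Estradiol enters the cell and binds estrogen receptor alpha, a nuclear receptor, which then acts on genes either by binding an estrogen response element, an inverted repeat of a short sequence, or through other DNA-bound factors such as those at AP-1 sites and GC boxes. Coactivators recruited by the receptor open chromatin and raise transcription. In liver this receptor is the main estrogen receptor and is known for effects on lipid, sterol and secreted-protein genes. Because whole liver was measured, fewer cells of a type and less RNA per cell cannot be told apart.

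The livers matched their labels. Esr1, which encodes the receptor, had a mean level of 0.39 ± 0.25 in wild-type placebo livers and -1.61 ± 0.48 in null placebo livers (SD, n = 5 each), a log2 difference of -2.00 with an adjusted p of 0.000341 in limma's moderated test, and it still read well above background in every null liver. Levels here and below are log2 intensities relative to the 75th percentile of the same array. All 6 hepatocyte markers on the list used (Alb, Ttr, Apoa1, Tat, Cps1 and Serpina1a) were well above background on all 20 arrays. Between 51.6% and 70.0% of spots were well above background per array, the highest share belonging to wild-type E2 animal 1, and arrays of a group correlated across probes at 0.978 to 0.994.

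E2 made no member pass the test in livers without the receptor. Of the 90 member probes 89, from 75 genes, were bright enough to be tested, the exception being the probe of Lama3, a laminin chain. None of the 89 passed an adjusted p of 0.05 for E2 against placebo in nulls, where the same fit called 0.00323% of all 30959 probes tested. At an unadjusted p under 0.05 there were 6 members, or 6.74% of those tested, beside 6.03% of all probes. Their number was 12 without null placebo animal 5 and 3 without null E2 animal 2. The median difference over the members was -0.12 on the log2 scale, beside -0.012 over all probes, and 64 of the 89 (71.9%, beside 53.2% of all probes) lay below 0. With the 2 members left out that no array of a null group showed above background, the median was -0.13.

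The size of effect that these null livers allow was limited for most members, but not for all. The upper end of the 95% interval of the E2 difference lay under 0.5 for 70 of the 89 members and under 0.25 for 37. Its median was 0.30, and for the remaining members it reached 0.5 or more. These counts, like the count of members called, include the 2 members that no array of a null group showed above background. At those 2 a test or interval in nulls says little. The matching shares of all probes were not computed for the intervals. The interval held 0 for 83 members, and for 88 the null E2 and null placebo animals overlapped, where 0.847% of all probes had null groups that did not. The member probe whose null groups did not overlap was that of Twnk, the helicase that unwinds mitochondrial DNA, at 0.21 ± 0.09 (SE; adjusted p = 0.817, limma).

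In wild types, where the members were chosen, the median difference over the 89 was 1.06 on the log2 scale (2.09-fold). At 3 probes, of Flrt1, Greb1 and H2ap, no wild-type placebo liver was well above background, so only a lower bound of the difference is known, and with these at their bounds the median was again 1.06. At the other 86 the lowest difference was 0.49 and the highest 2.87, at a probe of Lifr. Of the members 48 reached 2-fold and 8 reached 4-fold, the 3 probes counted at their bounds. The fit called 51 of the 89 higher, beside 0.284% of all probes, a count that the choice of members largely fixes. It was 20 with arrays scaled on their median and 31 with only the animals that the labels number 750 or above. In the deposited table, whose values track the arrays' median signals before background subtraction, dim probes differed less, such as 1.34 for Dusp8, 0.70 for Gna13, 0.66 for Greb1, 0.61 for Myo18b and 0.59 for Traf3ip2, beside the larger values given below. For 47 of the 90 probes every wild-type E2 animal also lay above all 15 other animals, nulls included, as it did for 0.288% of all probes; the wild-type values that chose the members enter this count.

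**Figure D1:**
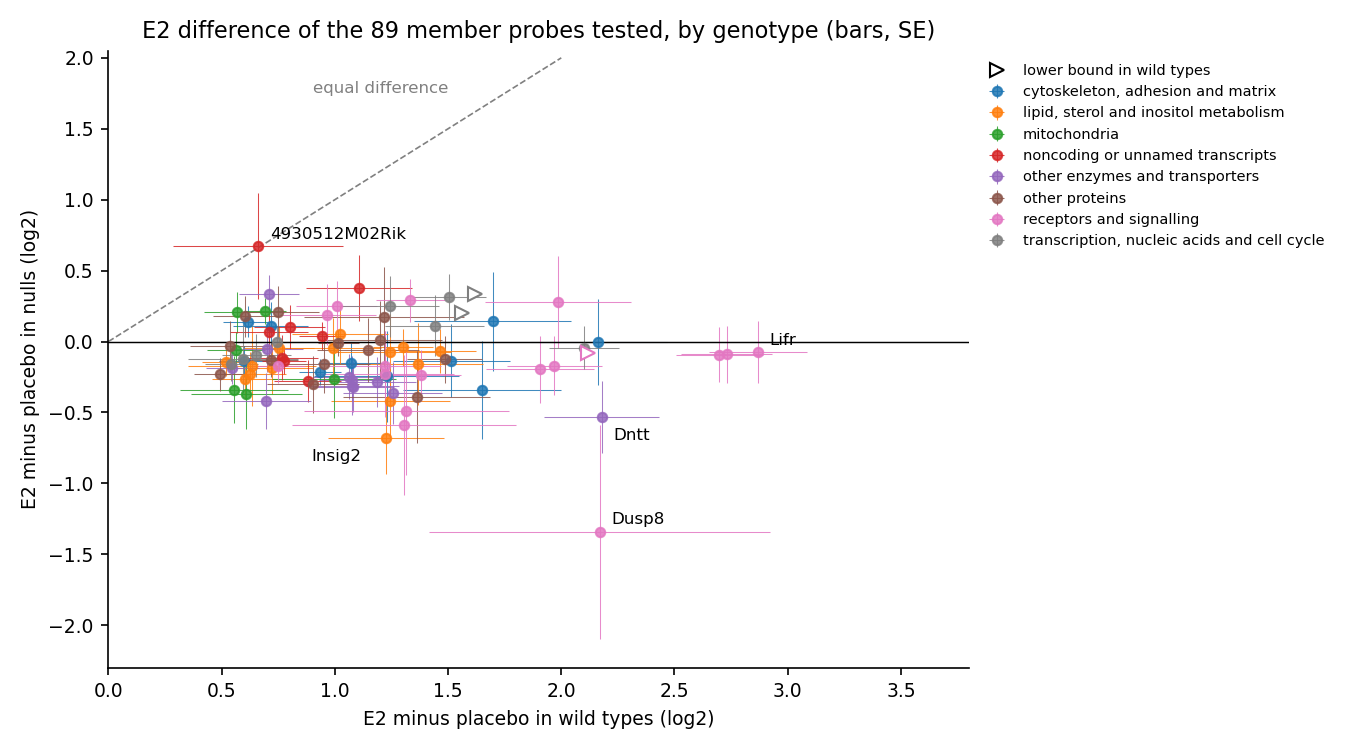
The E2 minus placebo difference in wild types (horizontal axis, log2) and in nulls (vertical axis, log2) of the 89 member probes tested, colored by role, with bars of 1 SE. Open triangles mark the lower bounds in wild types of probes of Flrt1, Greb1 and H2ap; at those of Flrt1 and H2ap a null group also had no liver above background, which leaves their vertical position uncertain. The other points spread from 0.49 to 2.87 along the horizontal axis, which chose them, and lie around the line at 0 on the vertical axis, from -1.34 for Dusp8 to 0.67 for 4930512M02Rik; the dashed line marks an equal difference in both genotypes.

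The animals of a group resembled each other over the members as a whole. Relative to the wild-type placebo mean, the median over the 89 members was 1.09, 1.05, 0.95, 0.89 and 0.94 in wild-type E2 animals 1 to 5. It was 0.22, 0.18, 0.13, 0.10 and 0.22 in the null placebo animals and 0.06, 0.11, 0.08, 0.03 and 0.11 in the null E2 animals. Every wild-type E2 animal lay above all null animals, and null placebo animals lay above the 0.09 of the highest wild-type placebo animal in all 5 cases. Wild-type values chose the members, so the place of the wild-type animals in these medians follows largely from that choice.

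At most of these genes placebo nulls had a higher mean than placebo wild types. The null minus wild-type difference under placebo had a median of 0.17, beside 0.0072 over all probes. It lay above 0 for 63 of 89 members and below 0 for 26 (29.2%, beside 48.1% of all probes). It passed the test for none, where 0.0614% of all probes did so. At an unadjusted p under 0.05 (limma) there were 25 members (28.1%), beside 9.71% of all probes. The difference was 0.5 or more for 17 members, and 14 of these had a lower mean in null E2 than in null placebo livers. The same null placebo livers enter both counts, which favors a lower mean in null E2 livers. Of all 89 members 64 had a lower mean in null E2 livers. Low wild-type placebo values helped to choose the members, so the difference under placebo is a description. Under E2 the nulls were lower by a median of 0.93 (log2 -0.93), with 46 members called beside 0.359% of all probes. The E2 difference in wild types minus that in nulls had a median of 1.15 and was called for 27 member probes, beside 0.171% of all probes, and it too holds the values that chose the members.

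**Figure D2:**
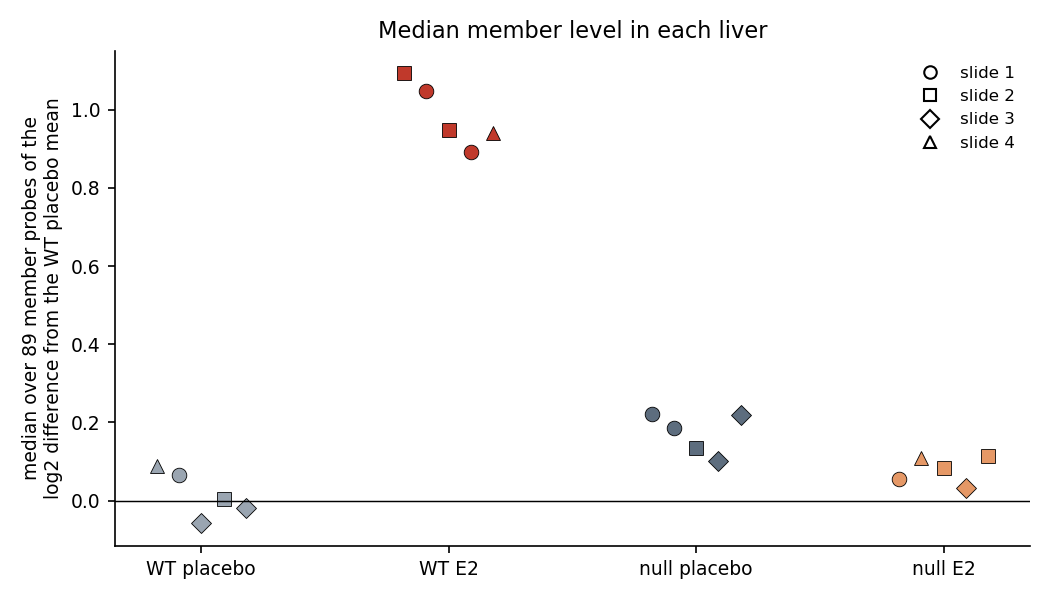
The median over the 89 member probes of the log2 difference from the wild-type placebo mean (vertical axis) in each of the 20 livers, by group and with a symbol for the slide. Wild-type E2 animals, whose values helped to choose the members, lie between 0.89 and 1.09. Null placebo animals lie between 0.10 and 0.22 and null E2 animals between 0.03 and 0.11.

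Within each slide that held both treatments of a genotype, the median over the members lay above 0 in wild types and below 0 in nulls. The choice of members largely fixed the wild-type sign. The median E2 difference over the members was 0.90, 1.08 and 0.71 in wild types on slides 1, 2 and 4, and -0.23, -0.11 and -0.09 in nulls on slides 1, 2 and 3. Each of these rests on 1 or 2 animals per treatment.

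The start regions of the member genes were searched for the sequences through which the receptor is known to act. RefSeq promoters (GRCm38.p6, from 250 bases before to 50 after the gene start) were found for 55 of the 76 genes, as 77 promoters. The full element GGTCANNNTGACC, read on both strands, was in 0 of the 77, beside 0.07% of 32851 promoters of all genes. With at most 1 of its 10 fixed bases changed it was in 5 of the 77 promoters (6.49%), beside 0.877% of all promoters. Counted by gene, these were 5 of the 55 genes (9.09%), beside 0.995% of 27025 genes. These 5 stretches are printed in the direction of the gene, with the element in capitals, because they are the nearest matches to the receptor's own site among the members.
Lifr: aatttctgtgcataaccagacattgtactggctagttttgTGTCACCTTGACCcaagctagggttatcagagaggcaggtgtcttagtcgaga
Mad2l1: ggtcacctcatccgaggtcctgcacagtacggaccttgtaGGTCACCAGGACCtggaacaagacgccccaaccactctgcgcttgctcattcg
Creb3l4: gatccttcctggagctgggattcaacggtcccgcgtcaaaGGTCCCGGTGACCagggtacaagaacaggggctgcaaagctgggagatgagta
Psen2: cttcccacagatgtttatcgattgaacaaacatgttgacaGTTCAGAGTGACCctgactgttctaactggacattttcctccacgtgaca
Coq8a: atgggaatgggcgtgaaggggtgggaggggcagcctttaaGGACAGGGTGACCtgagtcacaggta
Against the full element, counted from 1 at its 5′ end, Lifr has G1T, Mad2l1 T9G, Creb3l4 A5C, Psen2 G2T and Coq8a T3A. The Lifr stretch is at chr15:7140307-7140399 on the plus strand and that of Mad2l1 at chr6:66535067-66535159 on the plus strand. Those on the minus strand are at chr3:90242685-90242777 for Creb3l4, chr1:180245951-180246040 for Psen2 and chr1:180193486-180193551 for Coq8a.

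The same 5 genes differed in how far E2 moved them in wild types. Relative to the gene start the element began at position -195 in Lifr, -187 in Creb3l4, -114 in Mad2l1, -50 in Psen2 and -26 in Coq8a. Their differences in wild types were 2.87 for Lifr and 2.10 for Mad2l1 at their most responsive tested probes, 1.51 for Creb3l4, 1.02 for Psen2 and 0.56 for Coq8a, and in nulls they were -0.08, -0.04, 0.32, -0.01 and -0.06 in that order. Another Coq8a probe, no member, gave 0.21 in wild types. A single arm of the repeat, GGTCA, was found in promoters of 58.2% of the 55 genes, beside 43.6% of all genes, the AP-1 site TGANTCA in 9.09% beside 8.97%, and the GC box GGGCGG in 67.3% beside 38.2%. A gene counts here if any of its promoters has the sequence. By promoter the shares were 51.9% beside 40.5% for the arm, 6.49% beside 7.81% for the AP-1 site and 55.8% beside 35.7% for the GC box. This arm is part of the longer element, and all shares describe letters in this window, not binding. The shares of all genes cover every RefSeq gene with a promoter, whether or not it was measured in liver.

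Receptors and signalling proteins formed the role group with the highest median difference in wild types. It held 12 genes with 17 probes, with a median of 1.38 (range 0.75 to 2.87, without 1 Flrt1 probe known only by its bound) in wild types and -0.17 (range -1.34 to 0.29) in nulls, where none passed the test. The group of transcription, nucleic acids and the cell cycle was close, at 1.34 in wild types. Probes of the same gene count separately in these medians, and the choice of members enters the wild-type values.

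Lifr encodes the receptor subunit that pairs with gp130 to bind leukemia inhibitory factor. At the probe on chromosome 15 from 7147319 to 7147378 (mm9) its levels were 3.21, 2.86, 3.08, 3.81 and 3.19 in wild-type placebo livers and 6.21, 5.65, 6.38, 6.16 and 6.10 in wild-type E2 livers. They were 3.03, 3.33, 2.80, 3.74 and 3.55 in null placebo and 2.97, 3.08, 3.30, 3.90 and 2.82 in null E2 livers. The wild-type E2 livers stood apart from all 15 others, which overlapped throughout. The difference was 2.87 ± 0.22 in wild types (SE, 7.30-fold) and -0.08 ± 0.22 in nulls (adjusted p = 0.985, limma). A second Lifr probe, starting at 7141150, gave 2.73 in wild types and -0.09 in nulls. The third, starting at 7135072, is assigned by the array's files to another RefSeq transcript of the gene and gave less, 1.22 ± 0.30 in wild types and -0.23 ± 0.30 in nulls.

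Flrt1 encodes a membrane protein with leucine-rich repeats that takes part in cell adhesion and growth factor signalling. Its levels at one probe were -1.95, -1.69, -1.32, -1.51 and -2.12 in wild-type placebo livers and 0.65, 1.21, 0.41, 1.41 and 1.21 in wild-type E2 livers. In nulls they were -2.22, -1.52, -1.49, -2.08 and -1.77 under placebo and -1.97, -1.86, -1.86, -2.02 and -1.82 under E2. Again the wild-type E2 livers stood alone, with a difference of 2.70 ± 0.19 in wild types and -0.09 ± 0.19 in nulls (adjusted p = 0.975, limma). A second probe gave 1.98 in wild types and 0.28 in nulls. At the third no liver but the 5 wild-type E2 livers was well above background, which puts the wild-type difference there at 4.35-fold or more. Such bounds compare the bright group's mean with the dim group's mean, a dim reading being raised to that array's faintest detected probe where it fell below it.

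Both the receptor of interleukin 17 and its adaptor were members. Il17ra encodes a subunit of the receptor and Traf3ip2 the adaptor known as Act1, which links it to downstream kinases. Il17ra levels were -0.86, -0.35, -0.96, -0.86 and -1.11 in wild-type placebo livers and 1.64, 1.27, 0.79, 0.97 and 0.71 in wild-type E2 livers. They were -0.04, -1.48, -1.10, -1.15 and -1.22 in null placebo and -1.42, -1.26, -1.33, -1.29 and -0.67 in null E2 livers. Null placebo animal 1 was the highest of the null livers and still lay below every wild-type E2 liver. The difference was 1.91 ± 0.24 in wild types (3.75-fold) and -0.20 ± 0.24 in nulls (adjusted p = 0.951, limma). Traf3ip2 differed by 1.01 ± 0.18 in wild types and by 0.25 ± 0.18 in nulls (adjusted p = 0.890).

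Stat5a encodes a transcription factor activated by prolactin and growth hormone receptors. Its levels were 1.45, 0.95, 1.17, 1.11 and 1.55 in wild-type placebo livers and 2.69, 2.20, 2.68, 2.73 and 2.61 in wild-type E2 livers. In nulls they were 0.99, 1.19, 1.12, 1.61 and 1.32 under placebo and 1.25, 1.76, 1.71, 1.24 and 1.72 under E2. The null groups overlapped, and no null liver reached the lowest wild-type E2 liver. The difference was 1.33 ± 0.15 in wild types and 0.29 ± 0.15 in nulls, whose 95% interval ran from -0.03 to 0.61 (adjusted p = 0.837, limma).

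Dusp8, a phosphatase of stress-activated MAP kinases, had the lowest E2 difference in nulls of all members and the widest spread. Its levels were -1.59, -1.58, -3.09, -3.50 and -5.50 in wild-type placebo livers and 0.31, -0.65, -1.31, -1.46 and -1.30 in wild-type E2 livers. They were -0.68, -3.27, -0.76, -2.28 and -4.42 in null placebo and -2.33, -4.08, -3.23, -3.99 and -4.51 in null E2 livers. A pair of null placebo livers thus reached the range of the wild-type E2 livers, and each of the groups other than wild-type E2 had 1 liver not well above background. The difference was 2.17 ± 0.75 in wild types and -1.34 ± 0.75 in nulls (adjusted p = 0.844, limma). Another Dusp8 probe gave 0.66 in wild types and -0.22 in nulls.

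Map3k13, a kinase upstream of JNK, had 2 member probes, which differed by 1.97 ± 0.21 and 0.75 ± 0.12 in wild types and by -0.17 and -0.18 in nulls. The first was well above background in 2 of 5 wild-type placebo livers. Fst encodes follistatin, a secreted antagonist of activin, and its difference of 1.31 ± 0.45 in wild types leaned on animal 1 at 2.93, while the other 4 wild-type E2 livers lay between 0.75 and 1.66. Null livers reached as high as 1.31 for Fst, inside that range, and its difference in nulls was -0.49 ± 0.45 (adjusted p = 0.929, limma). Ngfr, the p75 neurotrophin receptor, Npy1r, a neuropeptide Y receptor, and Mark1, a kinase of microtubule-associated proteins, differed by 0.97, 1.31 and 1.22 in wild types and by 0.19, -0.59 and -0.17 in nulls. For Npy1r the wild-type E2 livers ran from -3.47 to -1.28, and null placebo animals 1 and 5 reached -1.28 and -1.85. The wild-type E2 livers thus did not stand apart for Npy1r, whose deposited difference was 0.60. Gna13, a G protein alpha subunit, differed by 1.38 ± 0.18 at its member probe and by 0.12 to 0.14 at 3 other probes of the gene.

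**Figure D3:**
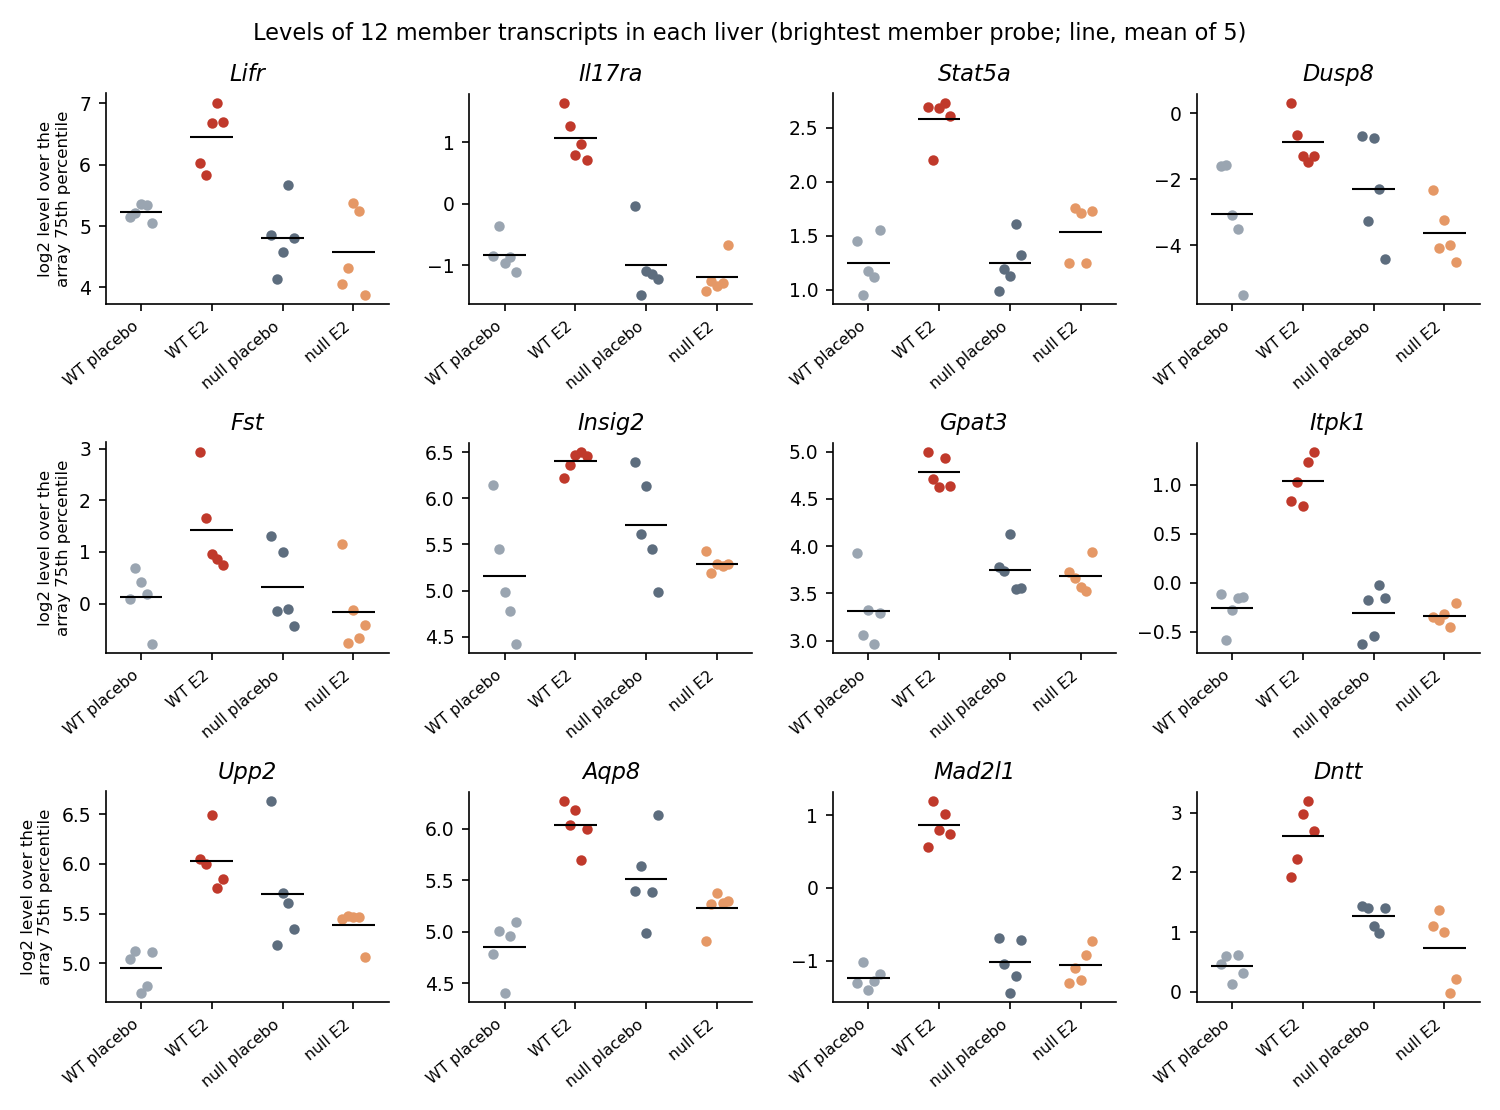
The log2 level relative to the array's 75th percentile (vertical axis) of 12 member transcripts in each liver of the 4 groups, at the member probe of the gene that was brightest in wild-type E2 livers; a line marks the mean of 5 animals. Wild-type E2 livers lie above wild-type placebo livers in each panel by the choice of members, and null E2 livers overlap null placebo livers in all 12.

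Genes of lipid, sterol and inositol metabolism numbered 12, with 14 probes. Their median difference was 1.01 (range 0.52 to 1.47) in wild types and -0.15 (range -0.68 to 0.05) in nulls, where 13 of 14 probes lay below 0 and none passed the test.

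Gpat3 encodes an acyltransferase of the first step of glycerolipid synthesis. Its levels were 3.93, 3.06, 3.33, 2.97 and 3.29 in wild-type placebo livers and 5.00, 4.71, 4.63, 4.94 and 4.63 in wild-type E2 livers. They were 3.78, 3.74, 4.13, 3.54 and 3.56 in null placebo and 3.73, 3.67, 3.57, 3.53 and 3.93 in null E2 livers. All null livers lay between the bulk of the placebo wild types and the E2 wild types. The difference was 1.47 ± 0.16 in wild types (2.76-fold) and -0.06 ± 0.16 in nulls (adjusted p = 0.981, limma), and placebo nulls were higher than placebo wild types by 0.43.

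Insig2 encodes an endoplasmic reticulum protein that holds back the activation of sterol-regulated transcription factors. At the brighter of its 2 member probes its levels were 6.15, 5.45, 4.98, 4.78 and 4.43 in wild-type placebo livers and 6.22, 6.36, 6.47, 6.50 and 6.46 in wild-type E2 livers. They were 6.39, 5.61, 6.14, 5.45 and 4.99 in null placebo and 5.43, 5.19, 5.29, 5.27 and 5.29 in null E2 livers. Placebo livers of both genotypes spread over more than a log2 unit, and livers given E2 were close to each other in both genotypes, high in wild types and lower in nulls. The difference was 1.25 ± 0.26 in wild types and -0.42 ± 0.26 in nulls (adjusted p = 0.873, limma). The other probe, which the files assign to another transcript, gave 1.23 in wild types and -0.68 ± 0.26 in nulls, the smallest unadjusted p of the members (0.0158), with an adjusted p of 0.813.

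Hmgcs1, the cytosolic synthase of the cholesterol pathway, differed by 0.63 ± 0.28 in wild types and -0.17 ± 0.28 in nulls, and was higher in placebo nulls than in placebo wild types by 0.72. Gpcpd1, a glycerophosphocholine phosphodiesterase, differed by 1.37 ± 0.29 in wild types and -0.16 ± 0.29 in nulls. Etnk2, an ethanolamine kinase, differed by 0.63 and -0.23, and its other 2 probes by 0.71 and 0.91 in wild types. Ehhadh, a peroxisomal enzyme of fatty acid oxidation, differed by 1.02 ± 0.21 in wild types and 0.05 ± 0.21 in nulls, its 5 wild-type E2 livers lying above all 15 others. Acot11, an acyl-CoA thioesterase, differed by 1.25 ± 0.27 and -0.07 ± 0.27, and Slc27a1, a fatty acid transport protein, by 0.52 and -0.14.

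Inositol lipids and phosphates were represented as well. Itpk1, a kinase of inositol phosphates, lay between -0.58 and -0.12 in wild-type placebo livers and between 0.79 and 1.34 in wild-type E2 livers. All 10 null livers lay between -0.62 and -0.02, so the wild-type E2 livers stood apart, and the difference was 1.30 ± 0.13 in wild types and -0.04 ± 0.13 in nulls (adjusted p = 0.986, limma). Isyna1, the synthase that makes inositol phosphate from glucose phosphate, differed by 0.99 ± 0.21 in wild types and -0.05 ± 0.21 in nulls. Mtmr7, a phosphoinositide phosphatase, differed by 0.72 and -0.18. C2cd2l, a lipid transfer protein of contacts with the plasma membrane, differed by 0.75 and 0.60 at its 2 member probes in wild types and by -0.05 and -0.26 in nulls.

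Mitochondrial proteins showed the smallest differences in wild types, with a median of 0.59 over 6 probes of 5 genes and -0.16 in nulls. Coq10b and Coq8a, both of the coenzyme Q system, differed by 1.00 ± 0.27 and 0.56 ± 0.13 in wild types and by -0.26 and -0.06 in nulls. A second Coq10b probe, no member, gave 0.85 in wild types and -0.27 in nulls. Another Coq8a probe, also no member, gave less, 0.21 ± 0.20 in wild types and 0.04 in nulls. Slc25a33, a mitochondrial pyrimidine nucleotide carrier, differed by 0.61 and 0.56 at its 2 member probes in wild types and by -0.37 and -0.34 in nulls. Twnk differed by 0.69 ± 0.09 in wild types, and Dglucy, a mitochondrial D-glutamate cyclase, by 0.57 with 0.21 in nulls.

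The remaining enzymes and transporters comprised 8 genes with 11 probes, with medians of 1.07 in wild types and -0.28 in nulls, where 10 of 11 lay below 0 and none passed the test. Dntt encodes terminal deoxynucleotidyl transferase, known as the enzyme that adds untemplated bases during immune receptor rearrangement. Its levels were 0.47, 0.60, 0.14, 0.61 and 0.32 in wild-type placebo livers and 1.93, 2.22, 2.98, 3.20 and 2.70 in wild-type E2 livers. They were 1.44, 1.41, 1.11, 0.99 and 1.40 in null placebo and 1.095, 1.37, 1.00, -0.01 and 0.22 in null E2 livers. Null placebo livers all lay above the highest wild-type placebo liver and below the lowest wild-type E2 liver. The difference was 2.18 ± 0.25 in wild types (4.53-fold), -0.53 ± 0.25 in nulls (adjusted p = 0.828, limma) and 0.84 for placebo nulls against placebo wild types.

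Upp2, the liver uridine phosphorylase, had a like order of groups. At its brighter probe the levels were 5.04, 5.12, 4.71, 4.77 and 5.11 in wild-type placebo livers and 6.05, 6.004, 6.49, 5.75 and 5.84 in wild-type E2 livers. They were 6.63, 5.18, 5.71, 5.60 and 5.35 in null placebo and 5.45, 5.48, 5.46, 5.47 and 5.06 in null E2 livers. Null placebo animal 1 was the highest of all 20 livers, so wild-type E2 livers did not stand alone. The difference was 1.08 ± 0.21 in wild types and -0.31 ± 0.21 in nulls (adjusted p = 0.886, limma), and the second probe gave 1.08 and -0.32.

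Aqp8, a water channel of hepatocyte and mitochondrial membranes, differed by 1.26 ± 0.22 and 1.18 ± 0.18 at its 2 probes in wild types and by -0.36 and -0.28 in nulls. It too was higher in placebo nulls than in placebo wild types, by 0.74 and 0.66. Tgm2, a transglutaminase that crosslinks proteins, differed by 1.08 ± 0.15 and 1.06 ± 0.16 in wild types and by -0.27 and -0.25 in nulls, with placebo nulls at -0.03 from placebo wild types at both probes. Ggct, an enzyme of glutathione breakdown, differed by 0.71 in wild types and by 0.34 ± 0.13 in nulls (unadjusted p = 0.019, adjusted p = 0.813, limma). Sds, the serine dehydratase of gluconeogenic amino acid breakdown, differed by 0.70 in wild types and by -0.42 ± 0.20 in nulls (adjusted p = 0.827). Sulf2, a heparan sulfatase, and Slc12a4, a potassium chloride cotransporter, differed by 0.70 and 0.55 in wild types and by -0.06 and -0.18 in nulls.

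Cytoskeletal, adhesion and matrix genes numbered 11, with 10 probes tested and medians of 1.15 in wild types and -0.14 in nulls. Smtnl2, a smoothelin-like protein, lay between -1.92 and -0.39 in wild-type placebo livers and between 0.18 and 1.90 in wild-type E2 livers. Its 10 null livers lay between -1.91 and -0.92, with a difference of 2.16 ± 0.30 in wild types and -0.0016 ± 0.30 in nulls (adjusted p = 1.00, limma). Baiap2l1, which shapes actin-rich membranes, differed by 1.07 ± 0.15 in wild types and -0.15 ± 0.15 in nulls. Dsc2, a desmosomal cadherin, differed by 0.94 ± 0.09 in wild types, the narrowest error among these 4 genes, and by -0.22 ± 0.09 in nulls (adjusted p = 0.817). Synpo, the actin-binding synaptopodin, differed by 1.51 ± 0.26 in wild types at its member probe but by 0.16 and 0.57 at 2 others.

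Spon1, a secreted matrix protein, and Myo18b, an unconventional myosin, were dim, each well above background in 2 of 5 wild-type placebo livers. They differed by 1.70 and 1.65 in wild types and by 0.14 and -0.34 in nulls. The other tested probes of Myo18b differed by 0.04 and 0.05 in wild types. Lama3 was well above background in 0 of 5 wild-type placebo, 3 of 5 wild-type E2, 0 of 5 null placebo and 2 of 5 null E2 livers, and its wild-type difference was at least 1.39-fold. Ngef, Inf2, Kif16b and Srgap3, which act on the cytoskeleton or on transport along it, differed by 0.72, 0.62, 0.60 and 1.23 in wild types and by 0.11, 0.14, -0.14 and -0.24 in nulls.

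Genes of transcription, nucleic acids and the cell cycle numbered 8, with 10 probes and medians of 1.34 in wild types and 0.06 in nulls. Mad2l1 encodes the spindle checkpoint protein Mad2. At its brightest probe the levels were -1.30, -1.01, -1.41, -1.28 and -1.18 in wild-type placebo livers and 0.56, 1.19, 0.80, 1.02 and 0.74 in wild-type E2 livers. They were -0.69, -1.05, -1.44, -1.21 and -0.72 in null placebo and -1.30, -1.09, -1.26, -0.93 and -0.73 in null E2 livers. No other liver came within a log2 unit of the lowest wild-type E2 liver, and the difference was 2.10 ± 0.15 in wild types (4.29-fold) and -0.04 ± 0.15 in nulls (adjusted p = 0.988, limma). Its other 2 probes gave 1.24 and 1.44 in wild types and 0.25 and 0.11 in nulls.

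Creb3l4, a membrane-bound transcription factor of the CREB3 family, differed by 1.51 ± 0.16 in wild types and 0.32 ± 0.16 in nulls (adjusted p = 0.837, limma). Greb1, a growth regulator named for its response to estrogen in breast cancer cells, was well above background in 0 of 5 wild-type placebo and all 5 wild-type E2 livers, a difference of at least 3.07-fold. Null livers were above background in 3 of 5 in each treatment and ranged from -5.96 to -1.69 there, across the wild-type E2 range. Another Greb1 probe, well above background in all 20 livers, gave 0.11 in wild types and -0.03 in nulls. H2ap, a histone-like protein, was above background in 0 wild-type placebo and 5 wild-type E2 livers, at least 2.96-fold higher. Hif1a, the oxygen-regulated transcription factor, Mn1 and Zmiz1, both transcriptional coregulators, and Zbp1, a sensor of left-handed nucleic acid, differed by 0.54, 0.75, 0.65 and 0.59 in wild types and by -0.16, -0.0023, -0.10 and -0.12 in nulls.

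**Figure D4:**
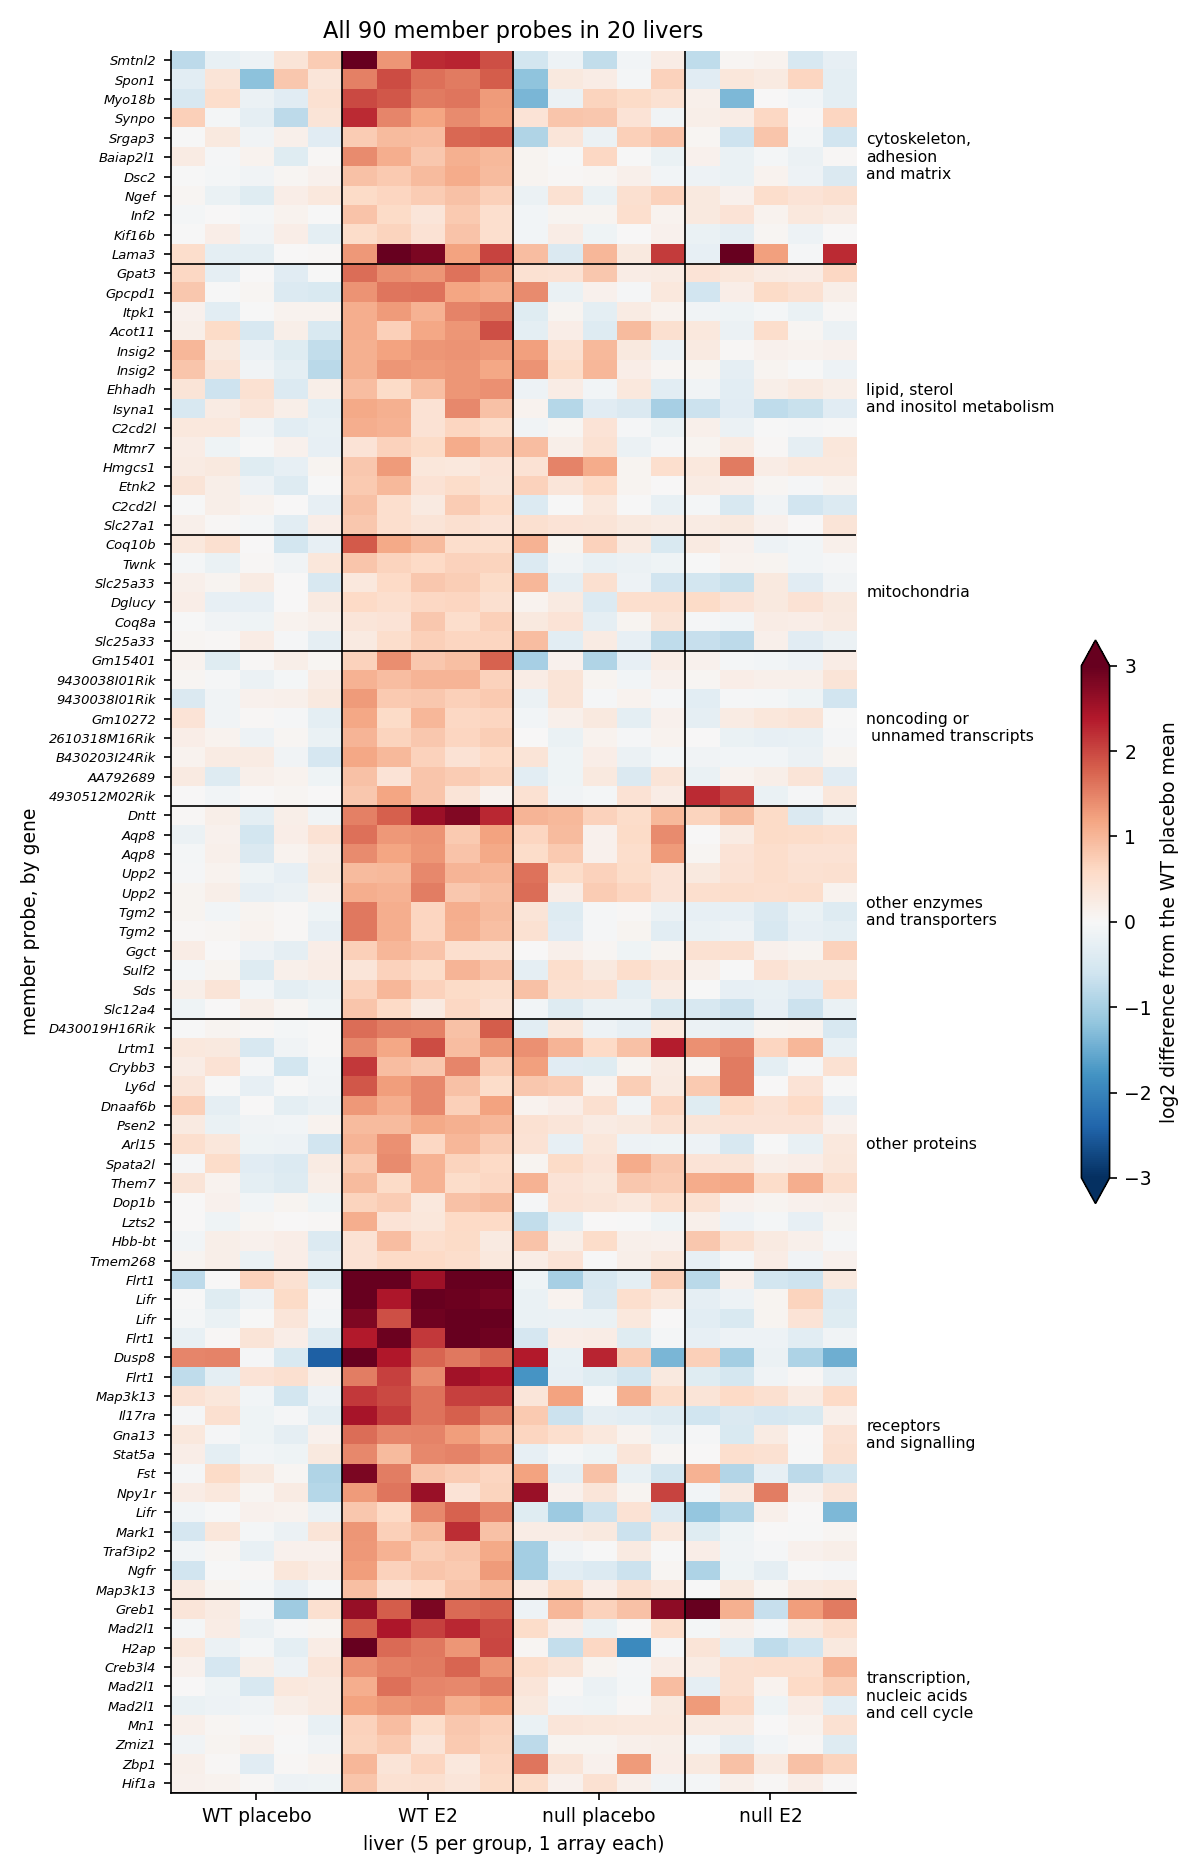
The log2 difference from the wild-type placebo mean (color, from -3 in blue to 3 in red) of all 90 member probes (rows, by role of the gene) in the 20 livers (columns, 5 per group). The wild-type E2 columns are red or pale red throughout, while the null columns are pale for most rows, with single livers standing out for Dusp8, Greb1, Lama3, Npy1r and 4930512M02Rik.

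The group of other proteins held 13 genes, with medians of 0.95 in wild types and -0.06 in nulls. Psen2, a catalytic subunit of gamma-secretase, had among the smallest errors, differing by 1.02 ± 0.09 in wild types and -0.01 ± 0.09 in nulls, with a 95% interval in nulls of -0.20 to 0.18. D430019H16Rik differed by 1.49 ± 0.17 in wild types and -0.13 ± 0.17 in nulls. Lrtm1, a leucine-rich repeat membrane protein, differed by 1.36 ± 0.32 in wild types and -0.39 ± 0.32 in nulls, and placebo nulls exceeded placebo wild types by 1.24, the highest such value of the members. Ly6d, a membrane protein of the Ly6 family, differed by 1.20 ± 0.27 and 0.01 ± 0.27. Arl15, a small GTPase, and Spata2l differed by 0.95 and 0.90 in wild types and by -0.16 and -0.30 in nulls. Crybb3, a lens crystallin, and Dnaaf6b, of a family that assembles the motors of cilia, differed by 1.22 and 1.15 in wild types and by 0.17 and -0.06 in nulls. Them7, Dop1b and Lzts2 differed by 0.75, 0.72 and 0.61 in wild types and by 0.21, -0.13 and 0.18 in nulls.

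Hbb-bt, an adult beta-globin gene, differed by 0.54 ± 0.18 in wild types and -0.03 ± 0.18 in nulls. Its near-identical neighbors Hbb-b2 and Hbb-bs fell just short of the rule, at 0.493 and 0.485 in the deposited table, and the array may not separate these copies. Of the 5 listed markers of red blood cells 3 (Hba-a1, Alas2 and Slc4a1) were matched to a tested probe by current symbol. Another listed marker, Hbb-b1, is the array's older name for the Hbb-bt probe itself. The 3 matched markers all lay above 0 for E2 in wild types, with a median of 0.49. Their levels were summed on the linear scale, where the brightest marker, Hba-a1, weighs most. The log2 of this sum was 6.73 to 7.23 in wild-type placebo and 7.28 to 7.91 in wild-type E2 livers. In null placebo livers it was 7.09 to 7.65 and in null E2 livers 7.22 to 7.71, none at 0. The part of these markers in the Hbb-bt difference was not tested.

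Noncoding or unnamed transcripts comprised 7 genes with 8 probes, with medians of 0.79 in wild types and 0.05 in nulls. The 9430038I01Rik gene differed by 0.94 ± 0.10 and 0.88 ± 0.15 at its 2 member probes in wild types and by 0.04 and -0.28 in nulls. Gm15401 differed by 1.11 ± 0.23 in wild types and 0.38 ± 0.23 in nulls. Gm10272, 2610318M16Rik, B430203I24Rik and AA792689 differed by 0.80, 0.78, 0.77 and 0.71 in wild types and by 0.10, -0.13, -0.11 and 0.07 in nulls. The highest E2 difference in nulls among the members was that of 4930512M02Rik, 0.67 ± 0.37 (adjusted p = 0.844, limma). It rested on null E2 animals 1 and 2 at 1.41 and 1.18, above every wild-type E2 liver, while the other 3 null E2 livers lay between -1.03 and -0.48 and all null placebo livers between -0.93 and -0.36. Its difference in wild types was 0.66 ± 0.37.

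A gene's other probes did not always follow its member probe. For 18 of the member genes 26 further probes passed the background filter. Their median difference was 0.32 in wild types, 24 of the 26 lay above 0, and none was called in nulls. The other probe showed at least 0.5 times the log2 difference of the member probe in 10 cases and less than 0.25 times in another 10, from 7 genes. Member probes were chosen for a high value and other probes were not, so the latter are the less selected reading. For Tmem268 they gave -0.20 and 0.80 beside 0.49, and for Zmiz1 0.59 and -0.37 beside 0.65.

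**Figure D5:**
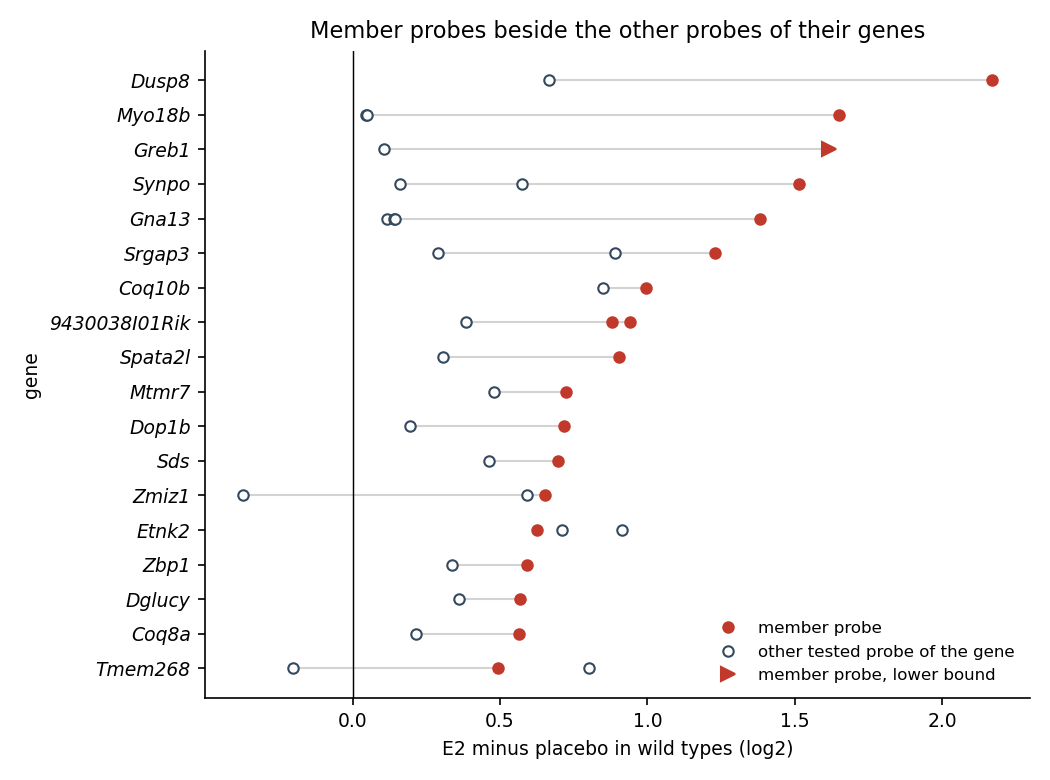
The E2 minus placebo difference in wild types (horizontal axis, log2) at member probes (filled; a triangle marks a lower bound) and at the other tested probes of the same gene (open), for the 18 member genes (vertical axis) with another tested probe. Open points lie near filled ones for Coq10b and Etnk2 and near 0 for Greb1, Myo18b and Gna13.

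Some members lay next to each other on the genome. Within 250 kb (mm9) there were 5 pairs of member genes, of 10 genes in all. All distances here run between the nearest ends of the probes, not of the genes, which may lie closer. Twnk and Lzts2 lay 14.8 kb apart on chromosome 19, AA792689 and Dusp8 39.0 kb apart on chromosome 7, Arl15 and B430203I24Rik 57.8 kb apart on chromosome 13, and Psen2 and Coq8a 60.3 kb apart on chromosome 1. None of these pairs had another measured gene between its probes. Ehhadh and Map3k13 lay 164 kb apart on chromosome 16 with 2 other genes between them, which differed by -0.02 and 0.07 in wild types. Within the pairs the wild-type differences at the member probes were 0.69 and 0.61 for Twnk and Lzts2, 0.95 and 0.77 for Arl15 and B430203I24Rik, and 1.02 and 0.56 for Psen2 and Coq8a. They were further apart for AA792689 and Dusp8, at 0.71 and 2.17, and for Ehhadh at 1.02 and Map3k13 at 1.97 and 0.75.

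Textbook genes of the estrogen pathway were also looked up. Of 24 listed estrogen targets 20 were measured at their brightest probe, with a median of 0.019 in wild types and -0.04 in nulls. In wild types 1 of the 20 (5%) was called at that probe, the member Stat5a, beside 0.284% of all probes, and the member Lifr was called at its 2 other probes but not at its brightest. Both are members, so their wild-type calls are no test. In nulls 0 were called at any of their 29 probes, and 6 lay above 0 at the brightest. The 3 with the smallest p in nulls were Ihh, a hedgehog ligand, at -0.81 ± 0.24 (adjusted p = 0.813, limma), Tff3, a trefoil peptide, at -1.22 ± 0.57 (0.827), and Stat5a. Of the 15 receptors and coregulators listed, Esr1, Esr2 and Gper1 included, none was called for E2 in either genotype, with medians of -0.10 in wild types and -0.015 in nulls. Markers of other liver cells were not called for E2 in either genotype in any of the 10 cell type lists.

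At the edge of the rule, Tmem268, Hif1a and Slc27a1 were just inside, at 0.502, 0.531 and 0.533 in the deposited table. Trim2, Hbb-b2 and Hbb-bs were just outside, at 0.496, 0.493 and 0.485, with groups that likewise did not overlap. A further 265 probes reached 0.5 but had overlapping wild-type groups. On the processed intensities used for all other values, 2 members, Etnk2 and Dnaaf6b, had overlapping wild-type groups.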

How the data were processed

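Livers of 20 mice were measured on 1-colour Agilent arrays, 1 per animal. Per the file headers, Feature Extraction 10.10.1.1 gave each spot a mean, median and background intensity and a processed intensity, background-subtracted and detrended by that software before the authors deposited it, with probes placed on mm9. A second deposited file holds log2 values, used here to choose the members and as an alternative. Across probes its columns correlated with the arrays' log2 median signals at nearly 1.0, each with a median of 7.85, so its scale and direction are known and its genes were not centred. The submitters' processing notes name limma.

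Levels are log2 processed intensities less the 75th percentile of the array's 59305 non-control spots, averaged over a probe's spots without the 0 to 16 that the files mark as non-uniform; none was saturated. Testing required a group in which 4 or more of the 5 arrays read well above background, which kept 30959 of 55681 probes. Differences were fitted with limma 3.58.1 (R 4.3.3) in 1 model of 4 group means over 20 arrays, 2-sided, adjusted by Benjamini-Hochberg over all probes, with a threshold of 0.05. The fit was tested on simulated data. The labels number separate animals, so p-values measure the spread between animals.

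The members and gene lists were chosen with earlier results of these data known, and the role groups were made after the values were seen. Described in full were the 24 genes with the largest deposited difference in wild types and genes with several member probes; others are named with 1 or 2 values in a role group, and of lists the 3 with the smallest p in nulls. A gene was named through its accession in RefSeq (84 probes), by current symbol (4) or as on the array (2). Gpat3, Twnk, Coq8a, Hbb-bt, Dop1b, Them7, H2ap, Dnaaf6b, Dglucy and Tmem268 have older names on the array. Promoters are RefSeq's, used for sequence alone. The number of animals limits the precision. Alternatives changed the scaling, background correction, source table, filter, samples, blocks, probe choice and the animals left out.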

Additional observations from a re-analysis of the deposited data

Results flagged for a closer look

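In 6 of 104 groups of 5 animals looked at (4 groups for each of 24 genes, at the most responsive member probe, and 8 of array-wide values) 1 liver lay far from the other 4, which chance gives in about 1 in 20 groups. For Il17ra, null placebo animal 1 was at -0.04269 with the next null placebo liver at -1.10, and null E2 animal 5 was at -0.6744 with the next null E2 liver at -1.25. For Stat5a, wild-type E2 animal 2 was lowest of its group at 2.20, with the next at 2.60. For Synpo, wild-type E2 animal 1 was at 1.142, with the next at 0.37. For Upp2, at its second probe, wild-type E2 animal 3 was at 5.699 with the next at 5.28, and null placebo animal 1 at 5.893 with the next at 4.95. Null placebo animal 1 stood highest for both Il17ra and Upp2, and its array had the lowest share of spots well above background, 51.6%; the part of that share in these levels was not tested.

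The response of 27 member probes, from 21 genes, differed between the genotypes by the test of the difference itself (limma, adjusted p under 0.05), all more positive in wild types, by 0.90 to 2.94 on the log2 scale, apart from 1 Flrt1 probe that only wild-type E2 livers showed above background and that has no exact difference. Of all probes 0.171% were called in this direction. Wild-type values chose the member probes, so their count describes them and tests nothing. Among the highest were probes of Lifr (2.94 ± 0.31, SE) and Dntt (2.71 ± 0.36), and the lowest was at a probe of 9430038I01Rik (0.90 ± 0.14).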

How the results depend on the processing

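The count of members called for E2 in nulls was 0 under every alternative run, with 3 to 8 at an unadjusted p under 0.05, and also when each animal was left out in turn, with 3 to 12, the 12 without null placebo animal 5. Over 42 described probes and 33 settings none of 1371 null values was called, the smallest adjusted p was 0.58, and 10 values moved by more than the spread between animals. The median null difference was -0.2274 when arrays were scaled on their median and -0.07442 at the brightest probe of each gene. Scaling on the array median also shifted all probes, to a median of -0.22 in wild types and -0.12 in nulls. In wild types the median difference was 0.8376 under that scaling, 0.7158 under normexp background correction, 0.7549 in the deposited table, 0.9966 with animals numbered below 750 as a block, 0.9581 with only animals numbered 750 or above, and 0.9914 at the brightest probes. The wild-type minus null median was 1.033, 0.8118, 0.859, 1.084, 1.008 and 1.04 under the same settings in that order. The null minus wild-type median under placebo was 0.1126 under normexp and 0.1097 in the deposited table. Members called in wild types numbered 20 under median scaling and 31 with animals numbered 750 or above, beside 51 in the main fit. The choice of members largely fixes these counts, and the shares of all probes called under the alternatives are not given. With no filter on dim probes the median over all probes in wild types was 0.13. Leaving out 1 animal gave medians of -0.131 to -0.0913 in nulls, 0.9579 to 1.081 in wild types, 1.056 to 1.171 for their difference and 0.130 to 0.189 under placebo, with 0 to 0 members called in nulls and 38 to 62 in wild types. Same-numbered animals did not deviate together (correlations from -0.15 to 0.24), so the numbers were not taken to pair them; with a replicate block 0 members were called in nulls, with a median of -0.1217, and 55 in wild types. All medians kept their direction. Dim probes limit precision: at 78 of 90 member probes all 20 arrays were well above background.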

Other observations

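Markers of macrophages and fat cells are given as values, since no comparison above uses them. All 6 Kupffer cell markers lay above 0 for E2 in both genotypes, with medians of 0.42 in wild types and 0.18 in nulls on the log2 scale, and none was called by limma in either. The log2 of their levels summed on the linear scale, in which the brightest markers weigh most, spread widely within each group. It ran from 5.10 to 6.08 in wild-type placebo, 5.19 to 6.87 in wild-type E2, 5.10 to 6.11 in null placebo and 5.50 to 6.42 in null E2 livers. The 3 measured fat cell markers (Cfd, Fabp4 and Retn) had a median of 0.56 in wild types and -0.34 in nulls, also with no call. The log2 of their levels summed in the same way, in which Fabp4 weighs most, was 1.47 to 2.23 in wild-type placebo and 2.08 to 2.52 in wild-type E2 livers. It was 1.65 to 2.49 in null placebo and 1.57 to 2.59 in null E2 livers. The groups overlapped in each case.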
